A study of Rattus norvegicus with 16 samples.

Results

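The 8 arrays on which si*Pax8* PCCl3 cells were hybridized against wild type (wt) PCCl3 cells were analysed, out of 16 arrays in the series, and they were chosen by their titles. PCCl3 is a continuous line of thyroid follicular cells from Fischer rats. si*Pax8* cells were transiently transfected, using Lipofectamine, with 10 ng/ml of an siRNA against *Pax8*, and RNA was collected 48 hours later. The labels call the control cells wild type, and the study's methods describe them as treated with lipofectamine, while the legend of its immunoblot has wt cells as not transfected. All cells were grown with TSH, insulin, hydrocortisone and the other hormones of the thyroid mixture. There were 4 biological replicates, each hybridized in both dye orientations, and the 8 arrays were taken to give 4 independent values per probe. Delivery of an siRNA and loss of *Pax8* cannot be told apart in this comparison, which is also limited to 1 cell line, 1 siRNA treatment and 1 time. The other 8 arrays compare si*Pax8* cells with cells given a scrambled siRNA (siScramble). Their ratios are given beside some results with no test between the comparisons, since the hybridization scheme lists si*Pax8* samples of the same numbers in both.

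Pax8 is a paired-domain transcription factor that thyroid follicular cells need in order to form and to stay differentiated. It acts together with Nkx2-1 and Foxe1 on the genes that take up iodide and attach it to thyroglobulin, the precursor of thyroid hormone. In culture these genes also depend on TSH, which acts through its receptor and cyclic AMP. Double-stranded RNA inside a cell can separately set off the interferon system, in which transcription factors of the IRF and STAT families switch on antiviral genes.

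Each array held 45018 spots. Of the spots other than controls, 55.0 to 60.8% were well above background in a channel, a mark that the scanner software gives each spot. Values are log2 ratios of si*Pax8* over wt, taken as the average of both dye orientations and given as the mean ± SD of 4 replicates. A negative ratio means a lower signal in si*Pax8* cells. This direction was read from the dye labels, and the paper's text words the direction of its counts of changed probes the other way round. A probe or gene is said to have changed where limma's adjusted p was below 0.005. Genes were called measured where a probe was well above background in either condition on all 8 arrays. A gene could thus pass through the condition where it was higher alone, which favours a call in that direction. All 10 named markers of follicular cells were measured. Of the named markers of other cell types, 5 of 8 for thyroid C cells, 5 of 6 for fibroblasts, 3 of 7 for leukocytes and 4 of 4 for endothelium were not well above background on any array. The remaining markers of these types did not pass the threshold, except the leukocyte and lysosomal gene *Cd68*, at 0.30. In such bulk RNA, fewer cells expressing a gene and less RNA per cell cannot be told apart.

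The targeted gene was lower in every replicate, though not evenly. The log2 ratios of *Pax8* were -0.84, -0.57, -0.59 and -0.26 in replicates 1 to 4. Replicate 4 was the least reduced in both dye orientations, at -0.35 where si*Pax8* carried Cy5 and -0.17 where it carried Cy3. The mean was -0.56 ± 0.24, or 67.7% of the wt signal (limma adjusted p = 0.000476). Against siScramble cells the ratio of *Pax8* was -0.25 ± 0.25 and did not pass the threshold (limma adjusted p = 0.143). Without replicate 3 the ratio to wt cells was -0.56 and missed the threshold (limma adjusted p = 0.0057), as it did on the arrays with si*Pax8* in Cy3, at -0.47 (limma adjusted p = 0.0181). Protein was not analysed here.

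Of 41012 probes, 6258 (15.3%) changed, of which 2885 (7.03% of all) were higher in si*Pax8* cells and 3373 (8.22%) were lower. All of the changed probes had the same sign in the 4 replicates, which the threshold on these same values favours. Of them 146 had opposite signs in the 2 dye orientations, and most changes were small. Only 95 of the changed probes rose and 42 fell by more than 1 on the log2 scale, against a median SD between replicates of 0.0632. The ratios of any 2 replicates correlated across probes, which are not independent, with r between 0.77 and 0.86. With intensities corrected by Agilent's own software, 770 probes were higher and 534 lower, and without replicate 3 the counts were 1645 and 1719. Gene names were available for 10768 probes, and 4149 of the 6258 changed probes stayed without a name. Among the 5253 named genes that were measured, 1521 (29.0%) changed, where 660 (12.6%) were higher and 861 (16.4%) were lower, with a median log2 ratio of -0.02. These shares, 12.6% higher and 16.4% lower, are the background for the counts of each group of genes below.

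**Figure D1:**
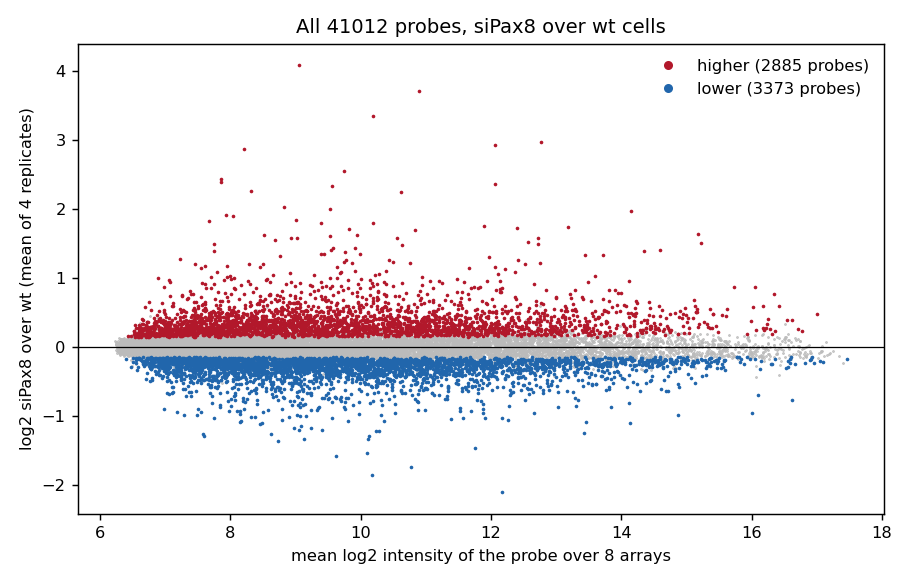
Mean log2 ratio of si*Pax8* over wt cells (vertical axis, mean of 4 replicates) against mean log2 intensity (horizontal axis) for the 41012 probes, with the 2885 higher and 3373 lower probes coloured. Most coloured probes lie close to 0, and the 95 that rose and the 42 that fell by more than 1 on the log2 scale stand out at the edges.

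Genes of thyroid hormone synthesis were mostly lower, the largest of the falls being about 2-fold. Of 18 measured genes of thyroid function, 12 were lower and 1 was higher, with a median of -0.54 on the log2 scale, beside 16.4% lower among all measured genes. Thyroglobulin (*Tg*), the protein on which thyroid hormone is made, had ratios of -1.14, -1.06, -0.83 and -0.79, and its mean of -0.96 ± 0.17 was a 1.94-fold decrease (limma adjusted p = 4.67e-06). *Crym*, which encodes a cytosolic protein that binds T3, had ratios of -0.81, -1.13, -0.98 and -1.11, with a mean of -1.01 ± 0.15. All replicates of both genes were below -0.7 on the log2 scale. *Slc5a5*, the sodium iodide symporter Nis, fell by 0.61 ± 0.07, and *Duox2*, which supplies hydrogen peroxide for hormone synthesis, by 0.66 ± 0.19. *Iyd*, which recovers iodide from iodotyrosines, fell by 0.44 ± 0.10, and stood at -1.32 with Agilent's corrected intensities. *Dio1*, a deiodinase that turns T4 into T3, fell by 0.80 ± 0.04 over 2 probes. Agilent's corrected intensities left 8 of the 18 genes lower.

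The exception was *Slc26a4*, which encodes pendrin, an anion exchanger that carries iodide into the follicular lumen. It rose in every replicate, at 0.72, 0.65, 0.62 and 0.58, to a mean of 0.64 ± 0.06 (limma adjusted p = 1.88e-06). Among regulators, *Hhex*, a homeobox factor of the thyroid, fell by 0.53 ± 0.08, and *Thrb*, a thyroid hormone receptor, by 0.54 ± 0.14. *Cdh16*, the kidney and thyroid cadherin, stood at -0.60 ± 0.04, but its 2 probes were apart, at -0.90 and -0.29. *Foxe1*, a forkhead factor, fell by only 0.19 ± 0.08, a call that was lost in 9 of 17 alternatives of processing or samples, among them without replicates 2, 3 or 4, at -0.18, -0.20 and -0.16. *Tshr*, the TSH receptor, had -0.13 ± 0.06, *Duox1* -0.16 ± 0.12, *Thra* -0.10 ± 0.07 and *Dio2* 0.04 ± 0.05, none past the threshold.

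Several of these genes had other values against siScramble cells. There *Tg* was at -0.65 ± 0.12, *Slc5a5* at 0.07 ± 0.09, *Crym* at 0.38 ± 0.09 and *Slc26a4* at -0.18 ± 0.14. Of the 18 thyroid genes, 1 was lower and 1 was higher against siScramble cells, beside 2.30% lower and 2.93% higher among all measured genes in that comparison.

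**Figure D2:**
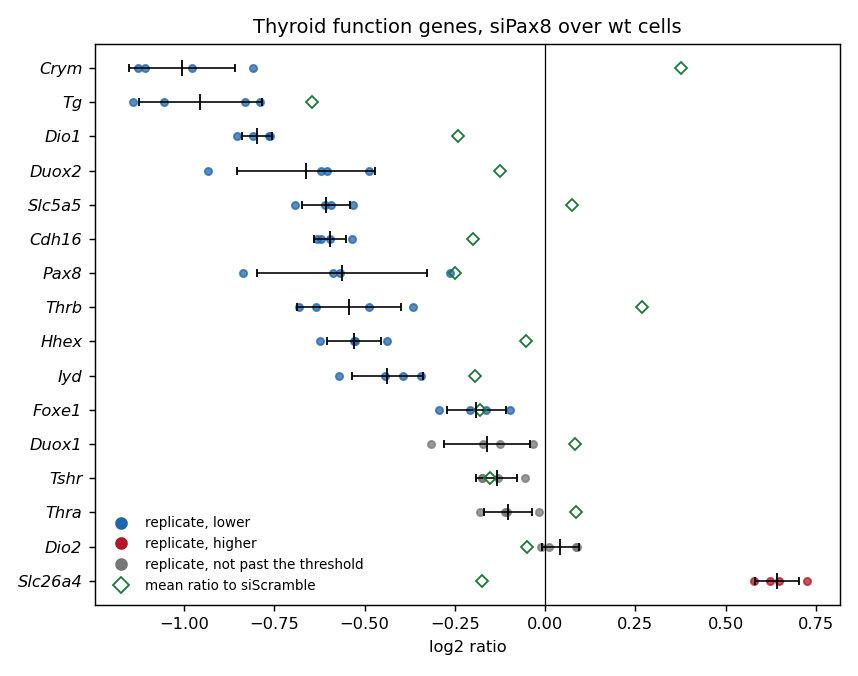
Log2 ratio of si*Pax8* over wt cells for 16 of the 18 measured genes of thyroid function. Dots are the 4 replicates, black marks are the mean ± SD and open diamonds the mean ratio to siScramble cells; *Crym* and *Tg* lie lowest against wt cells and *Slc26a4* is the gene that rose.

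Among named genes, the 2 largest increases were those of the interferon-stimulated genes *Oas1a* and *Mx2*. Of 28 measured genes of the interferon response, 23 were higher and none was lower, with a median log2 ratio of 0.95, where 12.6% of measured genes were higher. The count and the median include *Ifit3*, *Mx1* and *Ifi47*, which were well above background on no array in wt cells. These genes counted as measured through si*Pax8* cells alone, which favours a call of higher. The list median was 1.16, 0.97, 0.80 and 0.90 in the 4 replicates and lay at 0.93 over the arrays with Cy5-labelled si*Pax8* and 1.05 over the others. *Oas1a*, which makes the 2′-5′ oligoadenylates that activate RNase L, had ratios of 3.41, 3.04, 2.92 and 2.34. Its mean of 2.93 ± 0.44 was a 7.60-fold increase (limma adjusted p = 9.42e-07). *Irf7*, the transcription factor that amplifies type I interferon, had 2.48, 2.39, 2.30 and 2.29, a mean of 2.36 ± 0.09 and a 5.15-fold increase (limma adjusted p = 7.53e-09). No replicate of either gene came near 0.

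Other members included sensors, effectors and regulators. *Irf9*, a DNA-binding factor of interferon signalling, rose by 1.83 ± 0.19. *Usp18*, which removes ISG15 from proteins and dampens interferon receptor signalling, rose by 2.19 ± 0.23 over 2 probes, *Oasl2* by 2.25 ± 0.27 and the GTPase *Gbp2* by 1.75 ± 0.25. *Mx2*, a dynamin-like antiviral GTPase, rose by 2.86 ± 0.53, with wt cells well above background on 6 of 8 arrays. The 2 probes of *Rsad2*, which encodes viperin, were far apart, at 4.08 and 0.58 on the log2 scale, so that its mean of 2.33 ± 0.25 stands for neither. *Oas1b* at 1.50 ± 0.28 and *Oas1i* at 1.43 ± 0.24 resemble *Oas1a* in sequence, and their probes may share signal with it, as may those of *Lgals5* (2.03 ± 0.20) and *Lgals9* (1.62 ± 0.19). With intensities corrected by Agilent's software, *Mx2*, *Usp18* and *Oas1b* stood at 5.16, 3.33 and 2.64, and 17 of the 28 genes were higher.

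Ratios to siScramble cells were smaller for these genes. The list median was 0.22 and 3 of the 28 genes were higher, where 2.93% of all measured genes were higher in that comparison. *Oas1a* was at 0.40 ± 0.29, *Irf7* at 0.74 ± 0.12, *Mx2* at 0.60 ± 0.44, *Usp18* at 0.47 ± 0.27 and *Irf9* at 0.21 ± 0.16. The part of siRNA delivery in the ratios to wt cells was not tested.

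**Figure D3:**
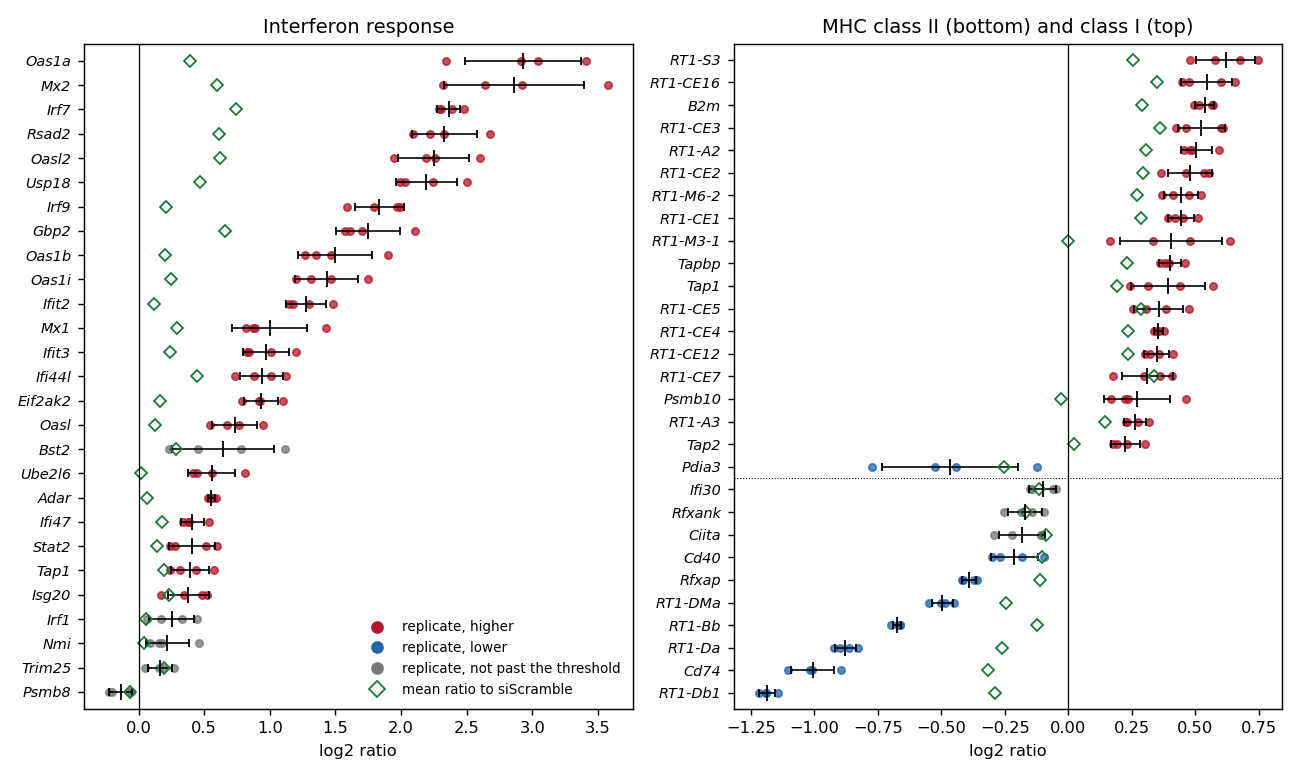
Log2 ratio of si*Pax8* over wt cells for 27 of the 28 measured genes of the interferon response and for the 19 of 26 MHC class I genes that changed and all 10 measured class II genes. Dots are the 4 replicates, black marks the mean ± SD and open diamonds the mean ratio to siScramble cells; the interferon genes reach 2.93, the class I genes shown lie above 0 except *Pdia3*, and the class II genes lie below 0.

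Promoters of 4 of these genes are shown because members of the interferon list rose together. The sequences are from RefSeq on the rat build GRCr8 and run, on the strand of the gene, from 250 bases before to 50 bases after its start. They are the 4 named interferon genes with the largest increase that have an entry in the promoter table, in which *Mx2* and *Usp18* were not found. Capitals mark matches to GAAANNGAA, or to its reverse complement TTCNNTTTC, which resembles the core of the element that IRF factors bind. *Oas1a* lies at chr12:41330216-41330515 on the plus strand and *Irf7* at chr1:205799974-205800273 on the minus strand. *Rsad2* lies at chr6:48788071-48788370 and *Oasl2* at chr12:47383136-47383435, both on the minus strand.
Oas1a: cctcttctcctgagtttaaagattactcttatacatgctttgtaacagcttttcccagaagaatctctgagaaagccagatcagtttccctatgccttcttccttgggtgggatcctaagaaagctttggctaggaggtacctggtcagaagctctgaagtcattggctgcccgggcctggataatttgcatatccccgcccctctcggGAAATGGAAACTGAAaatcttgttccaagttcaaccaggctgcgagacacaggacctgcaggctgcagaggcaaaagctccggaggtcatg
Irf7: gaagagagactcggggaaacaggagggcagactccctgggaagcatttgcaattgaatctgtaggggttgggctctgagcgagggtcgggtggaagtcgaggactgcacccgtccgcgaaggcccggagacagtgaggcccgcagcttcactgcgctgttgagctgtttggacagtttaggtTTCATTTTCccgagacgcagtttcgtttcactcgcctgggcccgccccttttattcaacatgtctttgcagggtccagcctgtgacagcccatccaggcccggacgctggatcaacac
Rsad2: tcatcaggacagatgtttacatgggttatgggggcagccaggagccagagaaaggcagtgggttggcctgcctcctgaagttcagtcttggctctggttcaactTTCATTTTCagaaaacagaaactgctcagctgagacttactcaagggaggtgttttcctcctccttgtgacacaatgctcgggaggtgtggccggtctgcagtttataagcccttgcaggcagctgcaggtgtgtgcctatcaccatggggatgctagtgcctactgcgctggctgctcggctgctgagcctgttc
Oasl2: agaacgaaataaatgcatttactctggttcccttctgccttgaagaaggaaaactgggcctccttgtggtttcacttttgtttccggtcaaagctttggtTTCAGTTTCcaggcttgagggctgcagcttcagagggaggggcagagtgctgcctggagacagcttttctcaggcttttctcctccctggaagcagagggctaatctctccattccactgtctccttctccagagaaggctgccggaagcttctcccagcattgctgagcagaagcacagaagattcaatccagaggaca

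Counted from their first base, the matches began 41 and 35 bases before the start in *Oas1a*, where they overlap, 68 bases before it in *Irf7*, 146 in *Rsad2* and 150 in *Oasl2*. The motif was present in 12 of 18 promoters of interferon genes that were higher (66.7%), and in 15 of 23 of all named interferon genes with a promoter entry (65.2%). It was in 6 of 17 promoters of MHC class I genes that were higher (35.3%). The share was 10.7% for all named genes that were higher, 7.68% for those that were lower, 7.44% for all measured named genes and 9.50% for the 27457 promoters of the table. A match describes the letters of this window and was not tested for binding.

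The 2 arms of antigen presentation moved in opposite directions. Of 26 measured genes of MHC class I presentation, 18 were higher (69.2%) and 1 was lower (3.85%), with a median of 0.35. Among all measured genes 12.6% were higher and 16.4% lower. *B2m*, the light chain shared by class I molecules, had ratios of 0.57, 0.50, 0.52 and 0.57 and a mean of 0.54 ± 0.04. The class I heavy chains *RT1-S3*, *RT1-CE16* and *RT1-A2* rose by 0.62 ± 0.12, 0.55 ± 0.10 and 0.50 ± 0.06, and since such genes are near copies of each other their probes may share signal. *Pdia3*, a disulfide isomerase of the loading complex, was lower, at -0.47 ± 0.27, but not past the threshold without replicate 2, at -0.48, or without replicate 3, at -0.36. None of the 26 genes passed the threshold with Agilent's corrected intensities, where the median was 0.39.

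MHC class II genes, which present peptides to helper T cells, were mostly lower. Of 10 measured, 7 fell (70.0%) and none rose, with a median of -0.44, where 16.4% of all measured genes were lower. *RT1-Db1*, a class II beta chain, had ratios of -1.19, -1.14, -1.19 and -1.22 and a mean of -1.19 ± 0.03, a 2.27-fold decrease (limma adjusted p = 7e-08). *Cd74*, the invariant chain that escorts class II molecules, fell by 1.01 ± 0.08, and *RT1-Da* and *RT1-Bb* fell by 0.88 ± 0.04 and 0.67 ± 0.02. With Agilent's corrected intensities the latter pair stood at -1.85 and -2.10. *Rfxap*, a subunit of the factor that binds class II promoters, fell by 0.39 ± 0.03. Against siScramble cells *RT1-Db1* was at -0.29 ± 0.05 and *Cd74* at -0.31 ± 0.05.

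Of 42 named chemokines and cytokines only 14 were measured, and 10 of them were higher (71.4%) and 2 lower (14.3%), with a median of 0.43. Among all measured genes 12.6% were higher and 16.4% lower. The 14 include *Ccl2*, which counted as measured through si*Pax8* cells alone. *Ccl2*, which attracts monocytes, had ratios of 2.49, 2.38, 2.35 and 2.34 and a mean of 2.39 ± 0.07, a 5.24-fold increase (limma adjusted p = 7.11e-09), with wt cells well above background on 5 of 8 arrays. *Cxcl10*, an interferon-induced attractant of T cells, rose by 1.80 ± 0.21, *Ccl5* by 1.20 ± 0.08, *Cxcl1* by 1.02 ± 0.15 and the macrophage growth factor *Csf1* by 0.79 ± 0.11. All replicates of these 5 genes were above 0. *Cxcl12*, the ligand of the receptor Cxcr4, fell by 0.75 ± 0.13 and *Tnfsf13* by 0.18 ± 0.06. The latter missed the threshold in 7 alternatives, among them without replicates 2, 3 or 4, at -0.15, -0.19 and -0.18. Against siScramble cells *Ccl2* was at 0.57 ± 0.14, *Cxcl10* at 0.09 ± 0.19 and *Ccl5* at -0.43 ± 0.15. Agilent's corrected intensities gave 4.97 for *Ccl2*, 2.64 for *Ccl5* and 1.65 for *Cxcl1*.

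Other large increases fell outside immune lists. *Gadd45a*, a growth arrest gene induced by DNA damage and other stress, had ratios of 1.76, 1.69, 1.71 and 1.79 and a mean of 1.74 ± 0.05. *Abca1*, which exports cholesterol to apolipoproteins, had 1.65, 1.73, 1.72 and 1.74 and a mean of 1.71 ± 0.04. *Adm*, the vasodilator peptide adrenomedullin, had 1.64, 1.63, 1.60 and 1.62 and a mean of 1.62 ± 0.02. These 3 genes were more than 3-fold higher with almost no spread between replicates (limma adjusted p = 7.53e-09 for each). Against siScramble cells they stood at 0.98 ± 0.08, 0.67 ± 0.07 and 0.73 ± 0.16.

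*Lgals3*, a galectin found in thyroid carcinoma, rose by 1.39 ± 0.07. *Slk*, a kinase of the Ste20 family, rose by 1.58 ± 0.18, *Acp3*, an acid phosphatase, by 1.58 ± 0.14 and *Sv2b*, a synaptic vesicle glycoprotein, by 1.33 ± 0.11. *Slfn4*, a Schlafen family gene, rose by 1.89 ± 0.37 with replicate 1 above the others, and by 3.15 with Agilent's corrected intensities. *Scnn1g*, a subunit of the epithelial sodium channel, rose by 1.35 ± 0.05, and 1.18 ± 0.07 against siScramble cells. *Hprt1*, a purine salvage enzyme often used as a reference gene, rose by 1.29 ± 0.07 and was between 1.21 and 1.41 at its 4 probes. This was a 2.45-fold increase (limma adjusted p = 2.54e-07).

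Immediate early genes, many of them transcription factors, were more often higher than lower. Of 30 measured, 14 rose (46.7%) and 5 fell (16.7%), with a median of 0.15. Among all measured genes 12.6% were higher and 16.4% lower. *Egr1*, a zinc finger factor induced by growth factors, had ratios of 1.41, 1.17, 1.33 and 1.35 and a mean of 1.31 ± 0.10. The AP-1 subunits *Jun* and *Fos* rose by 0.92 ± 0.05 and 0.86 ± 0.05, while *Jund* and *Batf3*, of the same dimerising family, fell by 0.46 ± 0.06 and 0.87 ± 0.16. *Klf6* rose by 0.79 ± 0.03 and the orphan receptor *Nr4a1* by 0.76 ± 0.05, and *Ier3* and *Btg2* fell by 0.62 ± 0.06 and 0.34 ± 0.08. Against siScramble cells *Egr1* was at -0.05 ± 0.11, *Fos* at -0.22 ± 0.03 and *Jun* at 0.47 ± 0.10. The MAP kinase phosphatases *Dusp6* and *Dusp5* rose by 0.55 ± 0.14 and 0.52 ± 0.07, and *Errfi1*, a feedback inhibitor of the EGF receptor, fell by 0.41 ± 0.06. *Dusp6* stood at 0.34 with si*Pax8* in Cy5 alone, and *Fos* and *Batf3* at 1.30 and -1.40 with Agilent's corrected intensities.

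Some genes of the stress response were higher. *Ddit3*, the factor Chop of the integrated stress response, had ratios of 1.55, 1.32, 1.18 and 1.34 and a mean of 1.34 ± 0.15 (limma adjusted p = 4.3e-07). Its targets and partners *Trib3*, *Atf5* and *Ppp1r15a* rose by 0.59 ± 0.13, 0.54 ± 0.08 and 0.46 ± 0.07, with *Atf5* at 0.28 on the arrays with si*Pax8* in Cy5 and 0.80 on the others. Of 28 measured chaperones and other genes of the unfolded protein response, 9 were lower (32.1%) and 3 higher (10.7%), beside 16.4 and 12.6% of all measured genes. Their median was -0.15 against -0.02 for all genes. The lower genes numbered 3 without replicates 2, 3 or 4 and 0 with Agilent's corrected intensities. *Cryab*, a small heat shock protein, fell by 1.00 ± 0.06, and by 1.16 ± 0.08 against siScramble cells. In the apoptosis list, 7 of 36 measured genes rose and 6 fell, shares of 19.4 and 16.7% that lie near those of all genes. Among them *Casp4* and *Bbc3*, which encodes Puma, rose by 0.62 ± 0.09 and 0.50 ± 0.08, and *Bcl2l11*, which encodes Bim, fell by 0.43 ± 0.05, and stood at -0.73 with Agilent's corrected intensities. Of the apoptosis genes 3 were lower without replicate 3.

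Growth factors and their binding proteins moved both ways. Of 30 measured, 13 were higher and 6 lower. *Igfbp3*, the main carrier of IGFs in blood, rose by 0.71 ± 0.07, *Vegfa*, a growth factor for vessels, by 0.56 ± 0.09 and *Nrg1*, a ligand of ErbB receptors, by 0.48 ± 0.03. *Igf2* fell by 0.59 ± 0.04 and *Pdgfa*, a growth factor for mesenchymal cells, by 0.42 ± 0.02. Of these genes, 4 were higher and 2 lower with Agilent's corrected intensities. In the TGF-beta and BMP list, 5 of 28 measured genes were higher (17.9%) and 1 was lower (3.57%), so the higher share lay near the 12.6% of all measured genes. *Tgfb3* and *Tgfb2* rose by 0.75 ± 0.08 and 0.54 ± 0.18. *Gdf15* fell by 0.63 ± 0.11, or 0.37 with si*Pax8* in Cy5 alone. *Cdkn2b*, an inhibitor of Cdk4 that TGF-beta induces in epithelial cells, rose by 0.77 ± 0.13.

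Among named genes, the largest decreases were in genes of varied function. *Aspg*, an asparaginase, had ratios of -1.20, -1.35, -1.39 and -1.54 and a mean of -1.37 ± 0.14, a 2.58-fold decrease (limma adjusted p = 2.8e-07). *Nppc*, which encodes C-type natriuretic peptide, had -1.25, -1.39, -1.35 and -1.36 and a mean of -1.34 ± 0.06. *Wnt4*, a secreted Wnt ligand, had -1.39, -1.24, -1.11 and -1.25 and a mean of -1.25 ± 0.12. All replicates of these 3 genes were below -1. Against siScramble cells *Aspg* was at -0.92 ± 0.13, *Nppc* at 0.01 ± 0.19 and *Wnt4* at -0.09 ± 0.07.

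*Aqp9*, a channel for water and glycerol, fell by 1.29 ± 0.17 and stood at -2.47 with Agilent's corrected intensities. *Akap5*, which anchors protein kinase A at membranes, fell by 1.21 ± 0.15, and *Sik1*, a kinase whose gene cyclic AMP induces, by 1.03 ± 0.14, though only by 0.64 on the arrays with si*Pax8* in Cy3. *Aldh1a1*, which makes retinoic acid, fell by 1.20 ± 0.07, and *Hpgds*, which makes prostaglandin D2, by 1.03 ± 0.05, or 1.80 with Agilent's corrected intensities. The kininogens *Kng2* and *Kng1*, precursors of kinins, fell by 1.17 ± 0.09 and 1.12 ± 0.08, and their sequences are so close that probes may share signal. *Slc4a8*, a bicarbonate transporter, fell by 1.06 ± 0.17, *Nme3*, a nucleoside diphosphate kinase, by 0.96 ± 0.06 and *Rhbg*, an ammonium transporter, by 0.93 ± 0.12. *Nrtn*, the neurotrophic factor neurturin, fell by 0.95 ± 0.10, and by 0.53 with si*Pax8* in Cy3 alone.

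**Figure D4:**
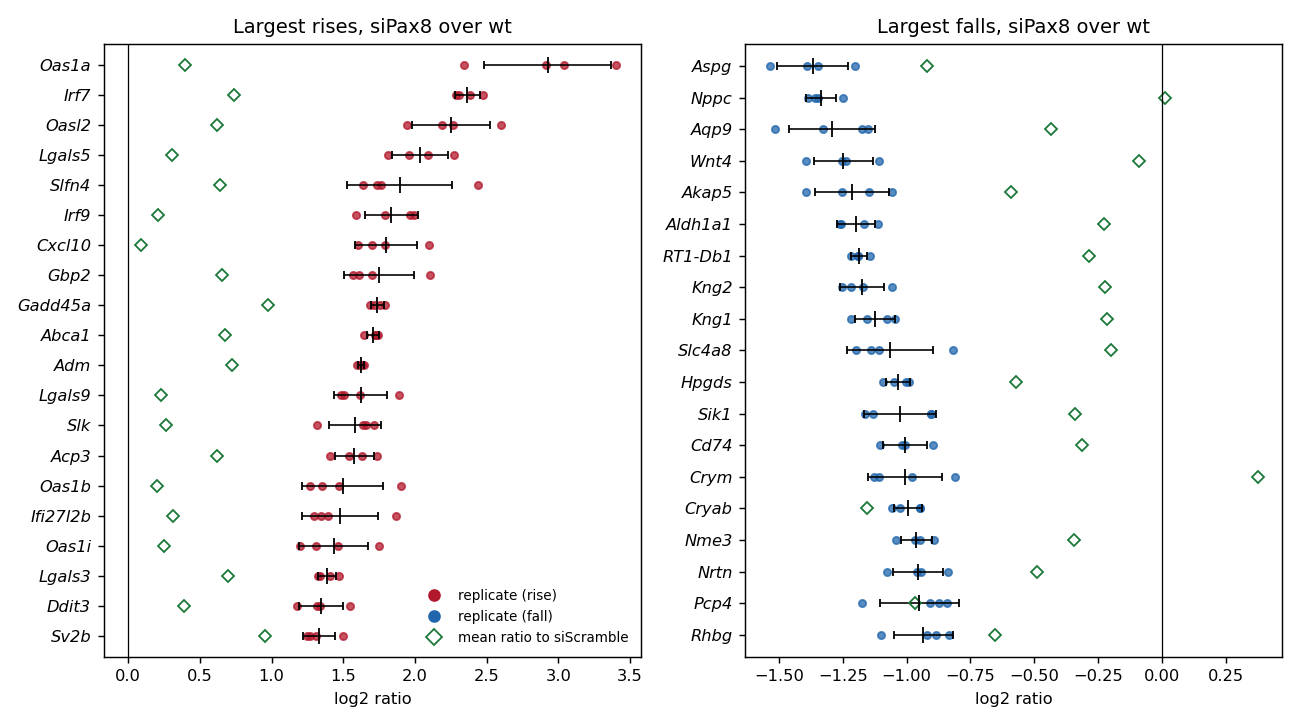
The 20 named, well measured genes with the largest increase and 19 of the 20 with the largest decrease in si*Pax8* against wt cells, leaving out genes named in the paper's text. Dots are the log2 ratios of the 4 replicates, black marks the mean ± SD and open diamonds the mean ratio to siScramble cells; the increases run from 1.33 to 2.93 and the decreases from -0.93 to -1.37.

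Genes of TSH, cyclic AMP and G protein signalling, some of which limit the signal, were more often lower than higher. Of 41 measured, 12 were lower (29.3%) and 1 was higher, with a median of -0.11, beside 16.4% lower among all measured genes. Against siScramble cells the median of this list was -0.01, with 2 genes higher and 1 lower, beside 2.93 and 2.30% of all measured genes in that comparison. *Crem*, a regulator of cyclic AMP-responsive genes, had ratios of -0.63, -0.76, -0.80 and -0.80 and a mean of -0.75 ± 0.08. *Pcp4*, a modulator of calmodulin, fell by 0.95 ± 0.15, the phosphodiesterases *Pde2a* and *Pde10a* by 0.68 ± 0.07 and 0.52 ± 0.12 and *Rgs2*, which limits Gq and adenylyl cyclase signals, by 0.58 ± 0.11. *Grk5*, a kinase that desensitises receptors, rose by 0.66 ± 0.05. Of 39 measured genes of phosphoinositide signalling 10 were lower (25.6%) and 2 higher (5.13%). The lower genes included the phospholipases *Plcg2* (-0.72 ± 0.05) and *Plcd4* (-0.64 ± 0.05) and the calcium release channel *Itpr2* (-0.44 ± 0.10). Only 4 genes of the first list and 2 of the second were lower with Agilent's corrected intensities.

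Genes of DNA replication and mitosis were more often lower than higher, by small amounts. Of 27 measured genes of DNA replication, 14 were lower (51.9%) and none higher, with a median of -0.18. Of 19 measured genes of mitosis, 9 were lower (47.4%) and 1 higher (5.26%), with a median of -0.19. Among all measured genes 16.4% were lower and 12.6% higher. Against siScramble cells the medians of these lists were -0.13 and -0.21. *Prim1*, the catalytic subunit of primase, had ratios of -0.71, -0.50, -0.93 and -0.42 and a mean of -0.64 ± 0.23. *Tipin*, *Timeless* and *Orc6*, which act at forks and origins, fell by 0.44 ± 0.08, 0.36 ± 0.02 and 0.42 ± 0.11. *Birc5*, which encodes survivin, fell by 0.67 ± 0.12 and *Pttg1*, which encodes securin, by 0.42 ± 0.10. *Aurkb*, a kinase of the chromosomal passenger complex, rose by 0.31 ± 0.11, but missed the threshold without replicate 3, at 0.31. With Agilent's corrected intensities no gene of either list passed the threshold, at medians of -0.19 and -0.20. Without replicate 3, 5 mitosis genes were lower.

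In nucleotide synthesis 12 of 25 measured genes were lower and 2 higher. The lower genes numbered 6, 4 and 3 without replicates 2, 3 and 4. *Rrm2*, a subunit of ribonucleotide reductase, fell by 0.59 ± 0.12 over 2 probes, and *Nme3*, described above, by 0.96 ± 0.06. With Agilent's corrected intensities 1 gene of this list was lower and 1 was higher. Inhibitors and cyclins of G1 were split, with 3 of 13 higher (23.1%) and 3 lower (23.1%). *Ccng1*, a cyclin gene that p53 induces, fell by 0.51 ± 0.06 over 2 probes. In the DNA repair list 10 of 34 were lower (29.4%) and 3 higher (8.82%), and *Gadd45a*, described above, is the member with the largest change. Without replicates 2, 3 and 4, 6, 5 and 5 DNA repair genes were lower, and with Agilent's corrected intensities none.

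Genes of cholesterol synthesis and uptake were more often lower than higher. Of 26 measured genes of cholesterol synthesis and uptake, 14 fell (53.8%) and 2 rose (7.69%), with a median of -0.21. *Idi1*, *Hsd17b7* and *Sqle*, enzymes of the pathway, fell by 0.61 ± 0.06, 0.49 ± 0.09 and 0.47 ± 0.06, although *Sqle* fell by only 0.17 with si*Pax8* in Cy5 alone. The exporters *Abca1* and *Abcg1* were the pair that rose, by 1.71 ± 0.04 and 0.64 ± 0.13. With Agilent's corrected intensities 3 genes of the list were lower and both exporters were still higher. *Mgll*, which splits monoacylglycerol, rose by 0.88 ± 0.12, and *Acaa2* and *Cpt2*, which burn fatty acids in mitochondria, fell by 0.62 ± 0.09 and 0.49 ± 0.07, within a list of 39 fatty acid genes of which 6 were higher and 7 lower. Those shares, 15.4 and 17.9%, lie near the 12.6 and 16.4% of all measured genes.

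One-carbon and serine metabolism was lower for 9 of 26 measured genes (34.6%) and higher for 1 (3.85%), beside 16.4 and 12.6% of all measured genes. The lower genes numbered 4 without replicates 2, 3 or 4, and 2 with Agilent's corrected intensities. *Cbs*, which makes cystathionine from homocysteine, had ratios of -0.76, -0.80, -0.72 and -0.77 and a mean of -0.77 ± 0.03. *Mthfd1*, a folate enzyme, and *Gamt*, which makes creatine, fell by 0.55 ± 0.07 and 0.54 ± 0.09. Of 34 measured genes of amino acid metabolism and transport 11 were lower (32.4%) and 5 higher (14.7%). The glutamine transporter *Slc38a3* was at -0.66 ± 0.04 and *Acy1* at -0.57 ± 0.08 beside *Aspg*. *Slc38a3* stood at -0.42 with si*Pax8* in Cy3 alone, and without replicate 3 the lower genes of this list numbered 7.

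Among 47 measured genes of redox and xenobiotic defence, 16 were lower (34.0%) and 3 higher (6.38%), beside 16.4 and 12.6% of all measured genes. The lower genes numbered 10 without replicate 3 and 4 with Agilent's corrected intensities. The ferritin subunits went apart, since *Fth1*, the heavy chain, fell by 0.74 ± 0.10 over 2 probes and *Ftl1*, the light chain, rose by 0.54 ± 0.09 over 4. Ferritins have many processed copies in the genome, so their probes are uncertain, and *Fth1* fell by 0.45 with si*Pax8* in Cy5 alone. *Nfe2l2*, which encodes Nrf2, rose by 0.66 ± 0.13 and *Txnip*, an inhibitor of thioredoxin, by 0.67 ± 0.08, while *Sod3*, the extracellular superoxide dismutase, fell by 0.54 ± 0.03.

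Of 64 cytosolic ribosomal proteins, all measured, 21 were lower (32.8%) and 1 was higher (1.56%), with a median of -0.14. Without replicates 2, 3 and 4 the lower genes numbered 4, 4 and 5. *Rpl22* fell by 0.32 ± 0.08, and *Rps29* was the member that rose, at 0.28 ± 0.11, though not past the threshold without replicate 3 or 4, at 0.27 and 0.29. No ribosomal protein passed the threshold with Agilent's corrected intensities, and such genes have near-identical copies elsewhere. Ribosome biogenesis had 3 of 39 higher and 3 lower, and translation factors 2 of 30 higher and none lower, both below the shares of all genes. Splicing genes had 2 of 28 lower (7.14%) and none higher, although *Prpf19*, a ubiquitin ligase of the spliceosome, fell by 0.87 ± 0.20. Of 26 proteasome genes 7 were lower (26.9%) and none higher, and of 49 respiratory chain genes 8 were lower and 4 higher. The respiratory chain shares, 16.3% lower and 8.16% higher, lie near or below the 16.4 and 12.6% of all measured genes. Without replicates 2, 3 and 4 the lower genes numbered 4, 2 and 3 for the proteasome and 4, 2 and 4 for the respiratory chain.

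Lysosomal genes were more often higher than lower. Of 40 measured, 18 rose and 2 fell, a share of 45.0% higher where 12.6% of all genes were, with a median of 0.17. The protease gene *Ctsl*, for cathepsin L, had ratios of 0.85, 1.00, 0.86 and 0.79 and a mean of 0.87 ± 0.09 over 2 probes with nearly equal values. *Ctsh* and *Ctsa* rose by 0.63 ± 0.08 and 0.61 ± 0.14 and *Grn*, which encodes progranulin, by 0.55 ± 0.10. *Ctsd* rose by 0.60 ± 0.07, with 0.28 on the arrays with si*Pax8* in Cy5 and 0.91 on those with si*Pax8* in Cy3. With Agilent's corrected intensities 5 of the 18 kept their call. Cathepsins also take part in freeing hormone from thyroglobulin. *Ctsh* stood at 0.40 with si*Pax8* in Cy3 alone. Against siScramble cells the list median was 0.17, with 5 genes higher and none lower, where 2.93% of all measured genes were higher. In that comparison *Ctsl* was at -0.02 ± 0.14 and *Ctsh* at 0.72 ± 0.09.

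Structural and adhesion genes were divided. Of 30 measured genes of epithelial junctions and polarity, 7 rose (23.3%) and 8 fell (26.7%). Of 43 cytoskeletal genes 11 rose (25.6%) and 5 fell (11.6%). Among all measured genes 12.6% were higher and 16.4% lower. *Alcam*, an adhesion molecule, rose by 0.93 ± 0.11, *Cdh1*, which encodes E-cadherin, by 0.56 ± 0.05 and *Crb3*, an apical polarity protein, by 0.52 ± 0.13. *Gja4*, a connexin, fell by 0.91 ± 0.08 and the motor adaptor *Mlph* by 0.45 ± 0.10. *Anxa1* and *Cald1*, which bind membranes and actin, rose by 0.76 ± 0.08 and 0.74 ± 0.18. In the matrix list, 7 of 22 were lower (31.8%), among them the integrins *Itgb4* (-0.55 ± 0.06) and *Itga1* (-0.52 ± 0.09). In the same list 3 were higher (13.6%), led by the protease inhibitor *Timp2* (0.76 ± 0.07). Among 35 measured ion transport genes 8 rose (22.9%) and 5 fell (14.3%), with the bicarbonate cotransporter *Slc4a4* at 0.66 ± 0.17 and the potassium channel *Kcnk1* at -0.83 ± 0.21. *Mlph* stood at -0.75 with Agilent's corrected intensities and *Itga1* at -0.33 with si*Pax8* in Cy3 alone. The cytoskeletal genes that rose numbered 7 and 6 without replicates 2 and 3. Without replicate 3, 5 junction genes and 4 matrix genes were lower and 5 ion transport genes were higher, and without replicate 4 the junction and ion transport counts were 5 as well.

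Of 24 heat shock genes 1 was higher and 3 were lower, of 24 mitochondrial ribosomal proteins 5 were lower, and of 15 aminoacyl-tRNA synthetases 1 was higher. As shares, 12.5% of heat shock genes and 20.8% of mitochondrial ribosomal proteins were lower, beside 16.4% of all measured genes. In the NF-kappaB pathway 3 of 12 were higher, among them *Icam1*, an adhesion molecule for leukocytes, at 0.39 ± 0.09. Feedback regulators of MAP kinases had 3 of 12 higher and 4 lower, keratins 1 of 4 each way, and surfactant and mucosal genes 2 of 8 higher. Over all 44 groups, with each gene counted once, 459 of 1165 measured members changed, 201 higher and 258 lower. Among all measured named genes 29.0% changed, 12.6% higher and 16.4% lower. The lists were chosen with earlier results of these data known, so no conclusion is drawn from the difference. Without replicates 2, 3 and 4 the mitochondrial ribosomal proteins that were lower numbered 3, 2 and 2.

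**Figure D5:**
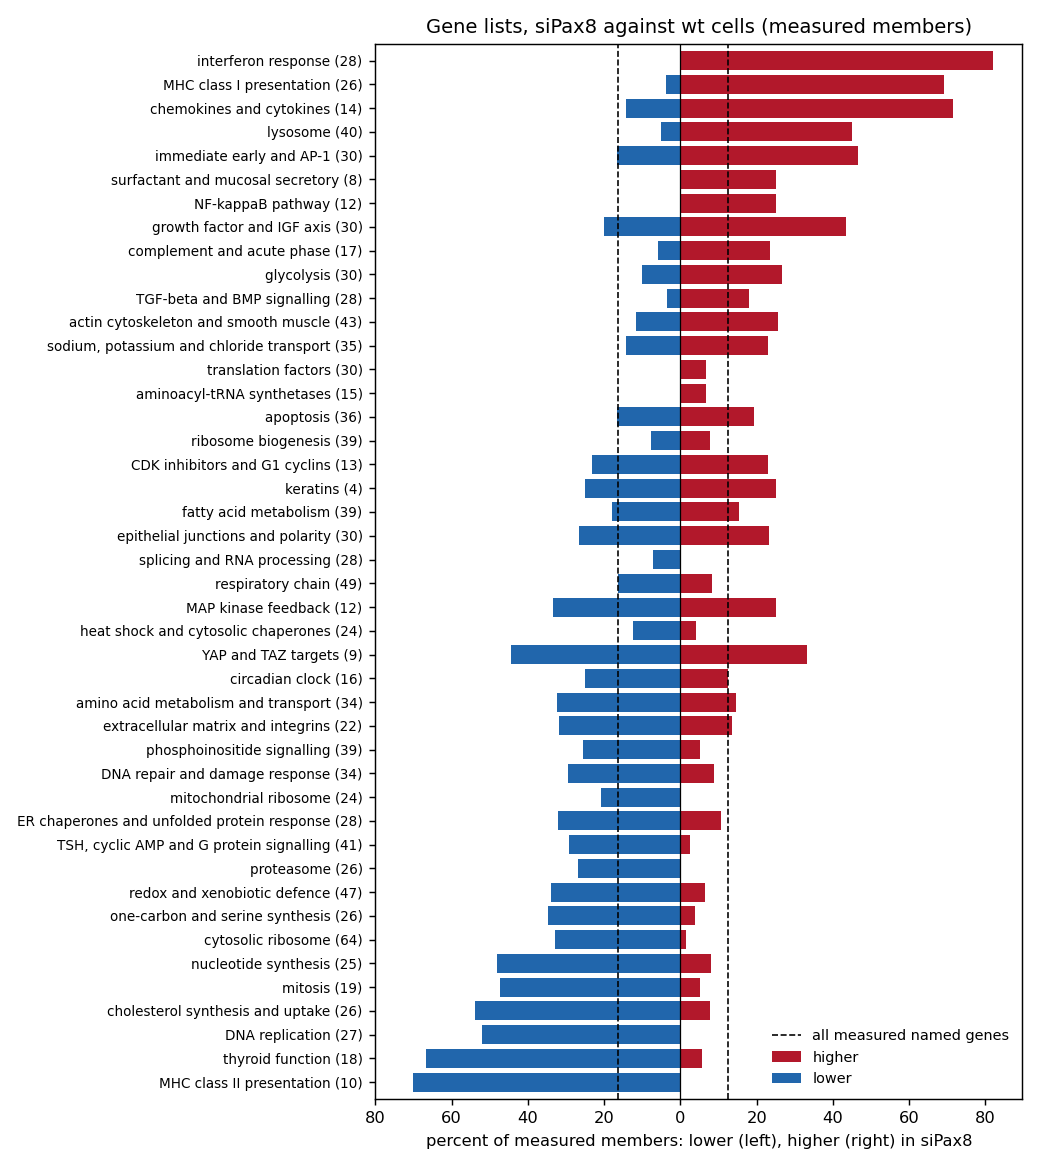
Percent of the measured members of 44 gene lists that were higher (right) or lower (left) in si*Pax8* cells at a limma adjusted p below 0.005, with dashed lines at the shares of all measured named genes, 12.6% higher and 16.4% lower. The interferon list lies farthest to the right, at 82.1%, and MHC class II and thyroid function farthest to the left, at 70.0 and 66.7%.

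A few genes were well above background on all 8 arrays in 1 condition and on none in the other, and for these the fold is a lower bound. It sets the signal of the bright channel, normalized as for the ratios, against the lowest signal accepted as above background, or the dim probe's own signal where that was higher. In separate channels such a bound is open to dye bias, which the balanced swaps reduce. There were 11 such genes above background in si*Pax8* cells alone and 4 in wt cells alone. *Sftpc*, which encodes a surfactant protein of the lung, was at least 5.40-fold higher, with log2 ratios of 2.62, 2.34, 2.48 and 2.29 and a measured mean of 2.43 ± 0.15 (limma adjusted p = 2.64e-08). After Aquantile normalization, which leaves ratios as loess gave them, its bound was 6.28-fold, and with Agilent's corrected intensities its log2 ratio was 5.48. Its ratio to siScramble cells was 2.16 ± 0.09. *Ifit3* and *Mx1*, antiviral genes, were at least 1.96-fold and 1.97-fold higher, *Ifgga2l1*, a GTPase gene of the interferon class, at least 1.83-fold and *Trim63*, a ubiquitin ligase of muscle, at least 1.57-fold. *Mx1* resembles *Mx2*, with which its probe may share signal. *Ifi47*, of the same interferon class, and *Nppb*, a natriuretic peptide, were at least 1.33-fold and 1.28-fold higher. On the other side *Ccna1*, *Oprl1* and *Prkcb* were at least 1.22, 1.21 and 1.18-fold lower.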

How the data were processed

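The authors deposited scanner files with Cy3 and Cy5 fluorescence intensities (mean spot and median background, not normalized) and intensities corrected by Agilent's software, and a table of normalized log2 ratios, which was used as an alternative. That table correlated with the ratios computed here at r between -0.9989 and -0.9975, so it holds control over si*Pax8*. Per the file headers, Feature Extraction 10.1.1.1 and a resolution of 5 µm were used, which differ from the methods. The probes were used by name, with no genome build.

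Here, limma 3.58.1 under R 4.3.3 was used on mean intensities, and normexp background correction with an offset of 50 shrinks the ratios of dim probes. Loess was applied within arrays with weight 0 for control and outlier spots, the 1639 control spots were removed, and all channels were quantile normalized. Spots of a probe and then the dye-swapped arrays of a replicate were averaged, and limma was fitted to the 4 values of each of 41012 probes, with Benjamini-Hochberg adjustment over all of them and the methods' threshold of 0.005. For 38 probes 3 replicates had a value. The arrays carried 112 to 174 outlier spots and at most 2 saturated spots each, and their number limits the precision. The fit was tested on simulated data.

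Probes were named from their accessions through RefSeq tables, and a gene's value is the mean over its measured probes. Of 1148 genes with more than 1 measured probe, 309 had probes that differed in call. Samples with the same replicate number were checked for pairing across dye swaps: deviations from the dye means correlated at 0.323, 0.118, 0.399 and 0.471 over 14424 probes with mean log2 intensity above 8, against -0.414 to 0.250 for unequal numbers. For replicate 2 the value of 0.118 was below the 0.204 of its array with si*Pax8* in Cy5 and the Cy3 array of replicate 1. Every equal number passed 0.1 and the scheme lists the same sample numbers in both orientations. The swaps of a number were therefore taken as the same samples, although the consensus correlation within replicates was only -0.12, or 0.13 with a dye term. Bounds on folds use the channels on the scale of the ratios, chosen after seeing the data.

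The named genes are those of thyroid function, the 20 well measured genes with the largest rise and the 20 with the largest fall that the paper's text does not name, up to 6 changed members of each list and members that changed against it, genes above background in 1 condition alone and genes whose promoter is shown. Some genes that this rule names are not reported here, in the text or in figures, though counts over lists include them. The gene lists and members were chosen with earlier results of these data known. Figures were drawn in Python 3.11.15 with matplotlib 3.10.9 and pandas 2.3.3. The alternatives were Agilent's corrected intensities, no background subtraction, loess alone, the deposited table, dim probes left out, each dye orientation alone, a replicate block with and without a dye term, a slide block, both comparisons in 1 fit, each replicate left out, the most intense probe of a gene and a threshold of 0.05.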

Additional observations from a re-analysis of the deposited data

Results flagged for a closer look

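Among the 308 named genes, 22 (7.14%) had 1 replicate whose log2 ratio to wt cells lay outside the other 3 by Dixon's criterion for 4 values, where chance alone gives about 1 in 20. Replicate 1 was the one apart in 13 of the 22 genes, and replicates 2, 3 and 4 in 3 each. Replicate 1 was the highest in *Slfn4*, at 2.44, and in the interferon genes *Mx1*, at 1.43, and *Ifgga2l1*, at 1.35. It was also the highest in *Nfe2l2* (0.86), *Dusp6* (0.76), *Slc7a3* (0.40) and *Upp1* (0.28). It was the lowest in *Plcd4* (-0.72), *Ctsa* (0.41), *Mcl1* (0.34), *Eno2* (0.24) and *Sparc* (0.19), and the closest to 0 in *Psma2* (-0.10). Replicate 2 stood apart in *Cdkn2b* (0.96), *Fos* (0.93) and *Umps* (-0.11), replicate 3 in *Dnaja1* (0.41), *Mlph* (-0.31) and *Pik3r1* (0.087) and replicate 4 in *Cpt2* (-0.38), *Slc38a3* (-0.60) and *Fbl* (0.089). All replicates of each of these genes had the sign of the mean. *Pax8* itself was also lowest in replicate 1, at -0.84, though within Dixon's limit, and whether this bears on the interferon genes was not tested.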

How the results depend on the processing

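The counts depended on the processing and on the arrays used, and why they did was not tested. With Agilent's corrected intensities 770 probes were higher, 534 lower and 128 list members changed, and *Pax8* missed the threshold at -0.58. On the 4 arrays with Cy3-labelled si*Pax8* the values were 1699, 1793, 291 and -0.47, and at an adjusted p of 0.05 the counts were 4876 higher and 5864 lower. Leaving out a replicate gave 1645 to 3166 higher and 1719 to 3799 lower probes, 296 to 503 list members and *Pax8* at -0.66 to -0.47. The lowest counts were those without replicate 3, and without replicates 2 and 4 the lower probes numbered 2068 and 2049. With the replicate block, which keeps the pairing of the dye swaps, 3108 probes were higher and 3574 lower, and with a dye term as well 3455 and 4068. The replicate block lost the call of some named genes but of no thyroid or interferon gene named as changed. Of 303 named genes that changed, 125 kept their call in all 17 alternatives, and Agilent's intensities lost 173 and Cy3 alone 83. The value of 110 genes moved by over 1.5 times, in none by leaving out a replicate. The sign turned in *Apaf1* (0.019) and *Nop16* (-0.051) with si*Pax8* in Cy5 alone and in *Nip7* (0.085) with it in Cy3 alone; the cause was not tested.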

Other observations

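Some other gene groups held genes that moved each way, where 12.6% of all measured genes were higher and 16.4% lower. Of 16 measured clock genes 2 rose and 4 fell, with *Per2*, a repressor of the clock, at -0.67 ± 0.05 and *Bmal1*, its activator, at 0.44 ± 0.02. Among 30 measured genes of glucose uptake and glycolysis 8 rose (26.7%) and 3 fell (10.0%), with the transporter *Slc2a1* at 0.50 ± 0.14 and the hexokinase *Hk3* at 0.54 ± 0.05. Without replicate 1, 14 glycolysis genes rose, and without replicates 3 or 4, 2 clock genes fell. *Krt14*, a basal keratin, rose by 1.01 ± 0.10, and by 1.83 with Agilent's corrected intensities. *Krt20* fell by 0.30 ± 0.07, and by 0.78 ± 0.06 against siScramble cells. *Hp*, which encodes haptoglobin, fell by 0.84 ± 0.10, and was the member of 17 measured complement and acute phase genes that fell, where 4 rose. Without replicates 2, 3 and 4 the complement and acute phase genes that rose numbered 1, 1 and 0. Of 9 measured targets of Yap and Taz 3 were higher and 4 lower, with a median of -0.14. Among them *Ccn2* and *Ccn1* were higher, at 0.46 ± 0.07 and 0.51 ± 0.13, and *F3*, which encodes tissue factor, was lower, at -0.88 ± 0.03.

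The largest changes on the arrays were in probes without a gene name. Chosen after their values were seen, probe A_42_P736315 had log2 ratios of 4.08, 3.77, 3.56 and 3.41, with a mean of 3.70 ± 0.29, and probe A_44_P150017 had a mean of 3.34 ± 0.41. Probe A_44_P505500 had -2.32, -1.15, -3.16 and -1.81, with a mean of -2.11 ± 0.85 and a wide spread, and probe A_44_P1050200 had -1.85 ± 0.18. For 3 genes, also chosen after their values were seen, different probes passed the threshold in opposite directions, namely *Hnrnpr* at 0.30 ± 0.09 and -0.20 ± 0.06, *Trnt1* at 0.24 ± 0.07 and -0.19 ± 0.03, and *Txnrd1* at 0.20 ± 0.02 and -0.24 ± 0.10. Among the 6258 changed probes, 146 had ratios of opposite sign in the 2 dye orientations.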
